A study of Vaccinium virgatum with 9 samples.

Results

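In fruit of rabbiteye blueberry (Vaccinium virgatum), 44 of the 38665 genes in the deposited count table had higher transcript levels after potassium sulfate given at flowering than in water controls, and lower levels than those controls after the same fertilizer given at the young fruit stage. The members were chosen by the measured values themselves. Counts were turned into CPM (a gene's reads relative to the total of its library, with totals scaled by TMM factors). A gene was taken when its mean over all 9 libraries was at least 3 CPM, its flowering-stage mean was at least 25% above the water mean, and its young-fruit-stage mean was at least 20% below the water mean. Of 16909 genes at that abundance floor, 0.260% met both fold limits. All 3 groups entered the choice, so the differences between groups given below describe the members and are not tests of them.

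The plants were 7-year-old potted bushes of the cross Menditoo × Tifblue, 1 per pot and under the same management. The young-fruit-stage group (YG) received 10 g of analytically pure potassium sulfate per plant, dissolved in water, at the young fruit stage. The flowering-stage group (KH) received the same 10 g at flowering, and the water group (CK) received the same amount of water. Fruit from the upper layer was picked 90 days after flowering in all groups, 12 to 18 fruits were pooled per replicate, and each group had 3 libraries. Potassium and sulfate were given together, and the time of feeding and the interval from feeding to picking changed together. Neither pair can be told apart here. The labels do not say whether replicates came from separate plants, so the p-values behind the calls reflect differences among these samples alone, and that spread may be technical.

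Potassium is the main inorganic cation of plant cells. It balances charge, drives the uptake of water into growing fruit cells and aids the loading of sugars into the phloem, and sulfate is the form in which roots take up sulfur for cysteine and methionine. In blueberry fruit, ripening turns on the synthesis of anthocyanins, the red to blue pigments named in the title of the series. The count table gives identifiers without gene names or functions, so none of the 44 members can be assigned to anthocyanin synthesis, potassium transport or another pathway, and the tissue could not be checked against markers. Of the members, 31 carry identifiers beginning with Vadar, and 13 carry the other prefix of the table and are described without their identifiers. Reads of near-identical gene copies in this polyploid plant may have been divided or merged by the counting, and whether reads were counted by strand is not given in the sources used here. RNA came from whole fruit samples, where fewer cells of a type and less RNA per cell cannot be told apart.

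Library totals ran from 15655016 to 18424967 counts. A member had between 21 and 11130 counts in a library, with a median of 96.5, so counting error is a sizeable part of the spread of many members. All 44 passed the filter on low counts that precedes the edgeR test. Replicates of a group differed by more than counting error, with a chi-square per degree of freedom of 2.62 to 5.79 between pairs, where counting alone gives about 1. CPM is not corrected for gene length, so levels are compared between groups and not between genes.

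In every library of the potassium groups the set as a whole stood on its side of the water mean. Relative to each member's water mean, the median log2 ratio was -0.52, -0.49 and -0.61 in the 3 young-fruit-stage libraries. It was 0.57, 0.66 and 0.53 in the 3 flowering-stage libraries, and -0.05, 0.01 and 0.02 in the 3 water libraries. The medians of the 3 groups did not overlap, in the order that the rule set for the group means of each member. All 44 members lay below their water mean in young-fruit-stage replicate 1, and 43 did in each of replicates 2 and 3. In the flowering-stage libraries 42, 42 and 43 members lay above it. The same picture held gene by gene for most of the set, with a few rows in which 1 flowering-stage library went the other way.

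**Figure D1:**
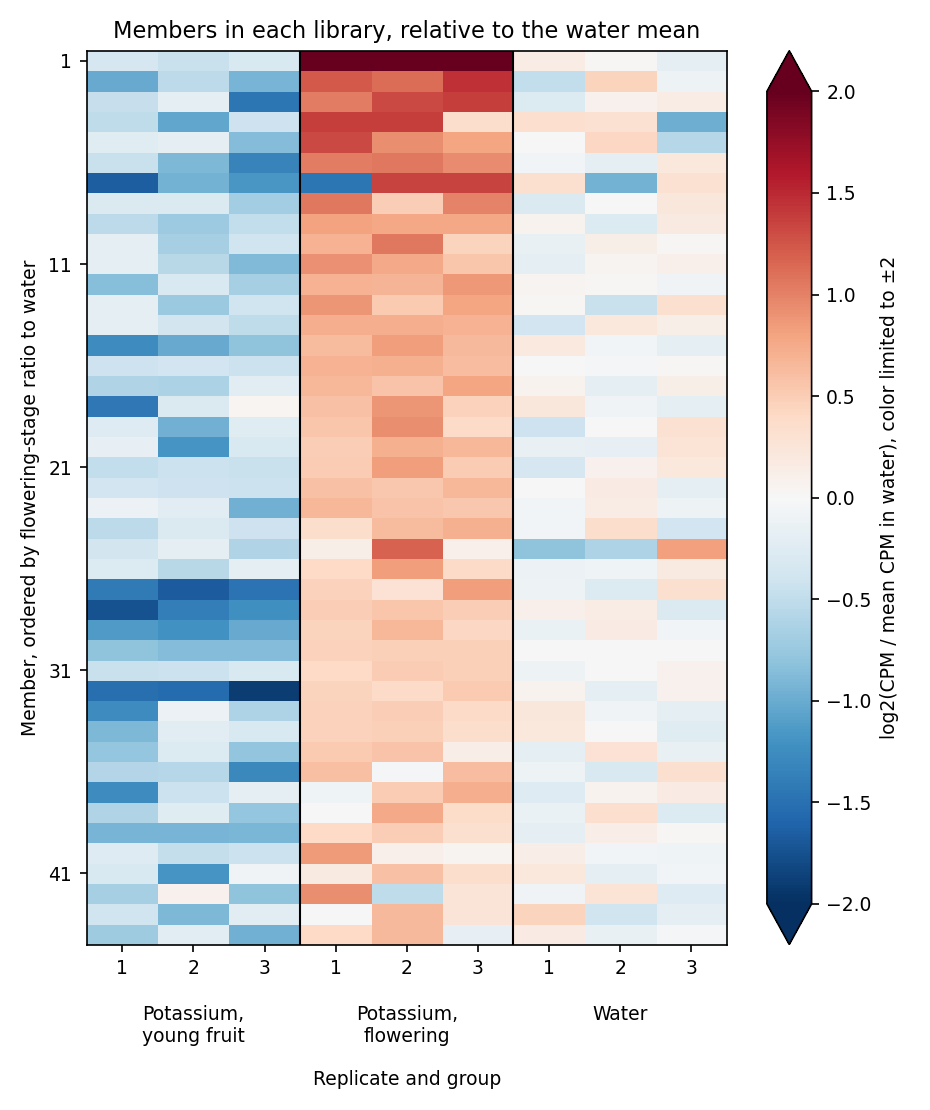
Each row is 1 of the 44 members, ordered by the ratio of flowering-stage potassium to water, and each column is 1 library. Color gives log2 of CPM over the member's mean CPM in water; young-fruit-stage libraries are mostly blue (median -0.52, -0.49 and -0.61) and flowering-stage libraries mostly red (0.57, 0.66 and 0.53).

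Most differences were modest and unequal in size. The ratio of flowering-stage potassium to water had a median of 1.51 and ran from 1.26 to 12.9, beside a median of 1.04 over all genes at the floor. The ratio of young-fruit-stage potassium to water had a median of 0.716 and ran from 0.322 to 0.793, beside 1.04 over all genes at the floor. Between the timings, young-fruit-stage levels were a median of 0.458 times the flowering-stage levels, with a range of 0.0605 to 0.596, beside 0.994 over all genes at the floor. The difference at flowering was the larger of the pair, as a ratio, in 26 members, and that at young fruit in 18. A ratio of at least 2 at flowering was seen in 6 members, and a ratio of at most 0.5 at young fruit in 6 others; no member had both.

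**Figure D2:**
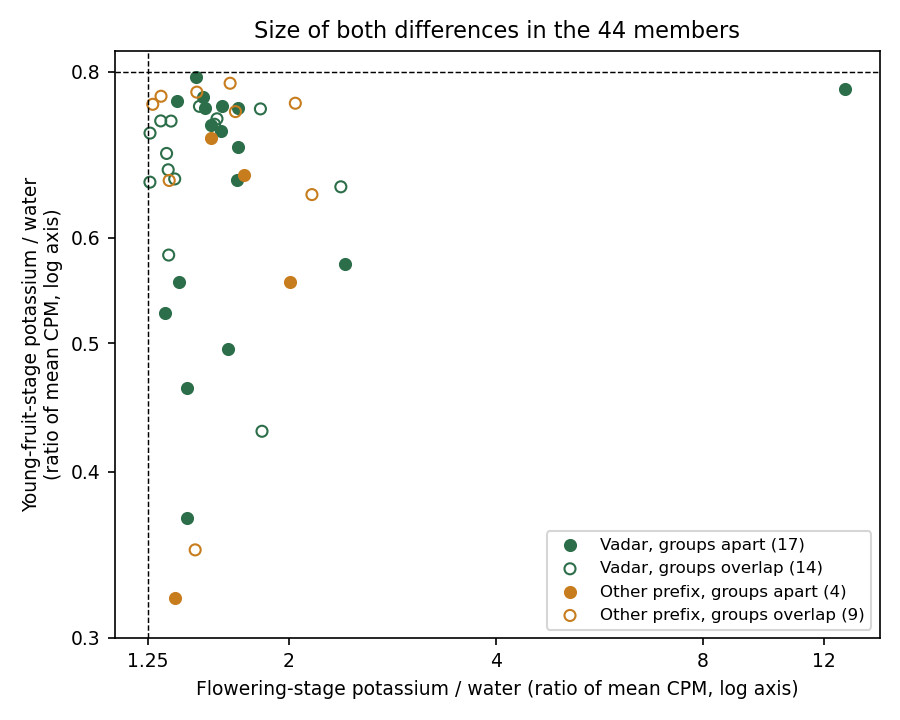
Each point is 1 member, with the ratio of mean CPM in flowering-stage potassium to water on the horizontal log axis and that of young-fruit-stage potassium to water on the vertical log axis; dashed lines mark the limits of the rule, 25% above and 20% below water. Filled points (17 Vadar genes and 4 with the other prefix) had groups that did not overlap in either comparison with water. This held for 0.639% of all genes at the floor, and the rule used both comparisons. At a flowering ratio of 12.9, 1 gene stands alone.

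The 6 members with the larger flowering-stage levels were led by Vadar_g39973.v1.2. This gene had 2.37, 2.19 and 2.41 CPM in the young-fruit-stage libraries, 39.1, 38.8 and 37.4 CPM in the flowering-stage libraries, and 3.32, 3.05 and 2.60 CPM in the water libraries. Its flowering-stage libraries stood far above all others, while the young-fruit-stage and water libraries lay close together without overlap. The means were 2.32 ± 0.12 CPM at young fruit, 38.4 ± 0.89 CPM at flowering and 2.99 ± 0.36 CPM in water (SD, n = 3 each). The edgeR log2 fold change was 3.67 ± 0.12 (SE) for flowering-stage potassium against water and -0.37 ± 0.17 for young-fruit-stage potassium against water, the second of which was not called at an adjusted p of 0.05. This member therefore combined the highest flowering ratio of the set with a young-fruit ratio of 0.777, near the limit of 0.8. It left the set when young-fruit-stage replicate 2 or water replicate 1 was left out, whereas the other 3 genes named below stayed in it without any single library.

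Vadar_g35303.v1.2 was second by the flowering ratio and differed from water on both sides. It had 2.74, 3.86 and 2.91 CPM after young-fruit-stage potassium, 13.0, 11.9 and 15.2 CPM after flowering-stage potassium, and 3.92, 7.52 and 5.15 CPM in water. The 3 groups did not overlap, although the highest young-fruit-stage library came close to the lowest water library. Its ratios to water were 0.574 at young fruit and 2.42 at flowering, with edgeR log2 fold changes of -0.83 ± 0.22 and 1.247 ± 0.189 (SE).

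The other 4 members with a flowering ratio of at least 2 were 1 Vadar gene and 3 with the other prefix, at ratios of 2.38, 2.16, 2.05 and 2.01. In all 4 the lowest flowering-stage library was above the highest water library (36.3% of genes at the floor). The members at 2.38 and 2.05 left the set without young-fruit-stage replicate 3, the second of them also without water replicate 2. At young fruit 3 of the 4 overlapped with water, while 29.0% of genes at the floor lay below water without overlap. The member without overlap had 3.43, 2.51 and 1.86 CPM at young fruit, 9.52, 9.74 and 8.96 CPM at flowering, and 4.52, 4.12 and 5.39 CPM in water. Over all 6 members of this kind the young-fruit ratio ran from 0.556 to 0.777.

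The members with the lowest young-fruit-stage levels relative to water included Vadar_g4736.v1.2 and Vadar_g6946.v1.2. Vadar_g4736.v1.2 had 2.68, 3.47 and 3.84 CPM at young fruit, 12.7, 13.2 and 12.7 CPM at flowering, and 9.71, 9.96 and 7.39 CPM in water. Its young-fruit-stage libraries lay far below the rest, and its flowering-stage libraries were above water by a smaller step. The edgeR log2 fold changes against water were -1.45 ± 0.17 at young fruit and 0.49 ± 0.15 at flowering (SE).

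Vadar_g6946.v1.2 behaved alike in size. It had 7.17, 6.82 and 7.80 CPM at young fruit, 21.4, 24.8 and 20.9 CPM at flowering, and 14.3, 17.6 and 15.2 CPM in water, without overlap of the groups. The edgeR log2 fold changes were -1.13 ± 0.12 at young fruit and 0.49 ± 0.11 at flowering (SE).

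**Figure D3:**
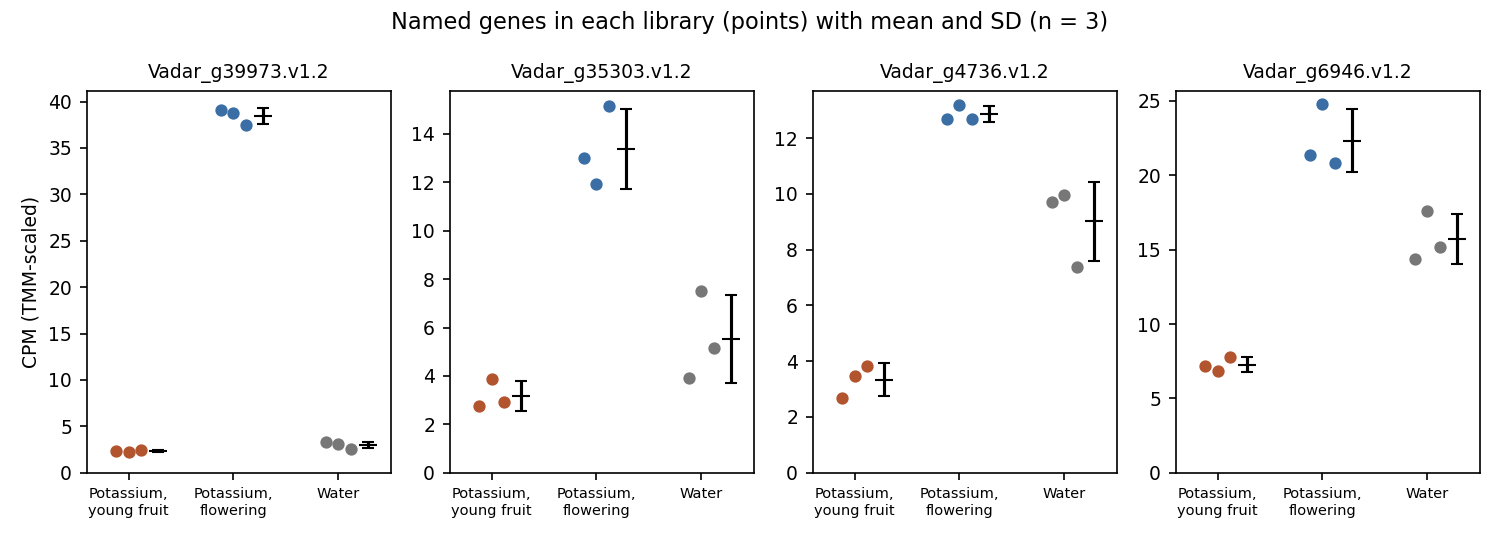
CPM of the 4 named genes in each library (points), with the mean and SD of each group (n = 3), for young-fruit-stage potassium, flowering-stage potassium and water from left to right. Vadar_g39973.v1.2 averaged 38.4 CPM at flowering against 2.99 CPM in water, while Vadar_g4736.v1.2 and Vadar_g6946.v1.2 showed the larger step on the young-fruit side.

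Of the 4 other members at or under a young-fruit ratio of 0.5, 2 had the other prefix and held the lowest ratios of the set, 0.322 and 0.349. The first had 7.23, 7.14 and 5.57 CPM at young fruit, 28.2, 26.9 and 29.8 CPM at flowering, and 21.8, 18.3 and 22.0 CPM in water, again with groups apart. The second averaged 1.63 ± 0.14 CPM at young fruit, 6.84 ± 1.38 CPM at flowering and 4.67 ± 1.02 CPM in water (SD, n = 3 each), and its flowering-stage libraries overlapped with water. A Vadar gene with a ratio of 0.495 had groups apart at 1.93 ± 0.30, 6.36 ± 0.51 and 3.89 ± 0.52 CPM in the same order of groups. The last of the 4, a Vadar gene with a ratio of 0.429, was divided within a group. It had 1.81, 2.96 and 2.54 CPM at young fruit, 2.08, 14.5 and 14.5 CPM at flowering, and 7.05, 2.95 and 7.02 CPM in water. Its flowering-stage replicate 1 lay at the young-fruit level, and so did water replicate 2.

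The remaining 32 members had ratios of 1.26 to 1.82 at flowering and 0.527 to 0.793 at young fruit. Among them was the member with by far the most counts, a Vadar gene at 316, 323 and 311 CPM at young fruit, 679, 691 and 648 CPM at flowering, and 425, 410 and 426 CPM in water. Its ratios were 0.755 and 1.60, and the 3 groups lay far apart relative to their SDs of 6.10, 22.2 and 9.05 CPM. The member with the second most counts, also a Vadar gene, averaged 52.9 ± 2.75 CPM at young fruit, 95.9 ± 3.35 CPM at flowering and 69.6 ± 4.24 CPM in water (SD, n = 3 each). A Vadar gene with a narrow spread had 12.8, 12.2 and 12.2 CPM at young fruit, 30.6, 31.1 and 31.2 CPM at flowering, and 22.1, 22.3 and 22.5 CPM in water. In these 3 genes water stood between both timings in every library.

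Because 1 gene held so many of the reads, the sum over the set mostly reports that gene. The members together made up 562, 575 and 563 CPM at young fruit, 1275, 1332 and 1252 CPM at flowering, and 795, 788 and 826 CPM in water. Without the gene with the most counts the sums were 246 to 252 CPM at young fruit, 595 to 641 CPM at flowering and 370 to 399 CPM in water. The rule fixes the order of the group means whichever gene is dropped, so these sums are a description.

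By the size of the difference the set divides into 4 kinds. Both ratios passed 1.5-fold in 7 members, all with means under 10 CPM. The flowering ratio alone did so in 16 members, whose young-fruit ratios ran from 0.669 to 0.784. The young-fruit ratio alone did so in 10, whose flowering ratios ran from 1.26 to 1.46. In the other 11 both differences were under 1.5-fold.

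The counts of members called or apart are given with the share of all genes that meets the same criterion, where that share was taken. Since the rule used these contrasts, nothing is read from the counts. The quasi-likelihood test of edgeR, adjusted over all 25728 genes tested with a threshold of 0.05, called 31 of 44 members higher at flowering than in water (24.3% of all genes tested). It called 22 lower at young fruit than in water (25.7% of all genes) and 43 lower at young fruit than at flowering (9.24% of all genes). With scaling by library size alone the first count was 26 (18.8% of all genes tested) and the second 34 (31.8%). Both calls against water were made for 18 members; 60 genes in all, 0.233% of those tested, had both. The other 42 genes with both calls were outside the limits that define the set, 41 of them at the floor but short of a fold limit and 1 below the floor. A call in neither comparison with water was seen in 9 members, of which 8 were called between the timings. The share of all genes was not taken for these counts.

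Separation of the individual libraries gave similar counts. All 3 young-fruit-stage libraries were below all 3 water libraries in 26 members (29.0% of genes at the floor). All 3 flowering-stage libraries were above all 3 water libraries in 32 members (36.3% of genes at the floor). Both held in 21 members (0.639% of genes at the floor), and the timings themselves were apart in 42 (20.7% of genes at the floor). The 2 members whose timings overlapped were the divided Vadar gene described above and a gene with the other prefix, which had 3.43, 5.79 and 3.10 CPM at young fruit, 10.4, 3.83 and 6.46 CPM at flowering, and 5.19, 6.56 and 4.54 CPM in water. This last gene was called in none of the comparisons and stayed in the set under 3 of the 9 single libraries left out.

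The ratio of observed to counting variance within groups, about 1 for counting error alone, had a median of 2.86 in the members and 2.57 in all genes at the floor. Among genes under 10 CPM it was 2.82 in the members and 2.14 in all. For Vadar_g39973.v1.2 it was 0.381, so its libraries differed within groups by no more than counting error. The lowest value of the set, 0.0749, belonged to the Vadar gene with the narrow spread described above. The highest, 54.8, was a member with the other prefix that had 9.85, 11.1 and 8.36 CPM at young fruit, 13.7, 28.6 and 13.6 CPM at flowering, and 7.23, 8.29 and 22.5 CPM in water. In that member water replicate 3 and flowering-stage replicate 2 stood far above the other libraries of their groups. It left the set without either of them, and also without young-fruit-stage replicate 3 or water replicate 1. The divided Vadar gene followed at 34.1.

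The members mostly had low CPM, which need not mean few transcripts, as CPM is not corrected for gene length. Their mean over all libraries had a median of 6.18 CPM, with quartiles at 4.0 and 12.0 CPM, against a median of 19.9 CPM over all genes at the floor. Under 10 CPM lay 31 members, or 70.5%, against 31.1% of all genes at the floor. As a share of the genes that could qualify, members made up 0.589% of the 5260 genes under 10 CPM and 0.112% of the 11649 genes at or above it. The within-group coefficient of variation, taken as the median of the 3 groups, was 17.4% in members under 10 CPM, against 13.8% in all such genes at the floor, and 9.61% in the other members, against 6.00% in all other genes. Groups were apart on both sides of water in 10 of the 31 members under 10 CPM (0.304% of all genes under 10 CPM at the floor) and in 11 of the 13 others (0.790% of all genes at or above 10 CPM).

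Identifiers with the other prefix made up 29.5% of the members (13 of 44) and 13.6% of all genes at the floor (2300 of 16909). Put the other way, 0.565% of the other-prefix genes at the floor and 0.212% of the Vadar genes were members. Other-prefix members had fewer counts, with a median of 5.47 CPM against 8.19 CPM in Vadar members, and the part of abundance in this difference was not tested. No Vadar members had adjacent numbers in their identifiers, the closest being 19 apart, and the table does not say whether numbers follow position in the genome.

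The same measure was then read in libraries that had no part in choosing the genes followed. With 1 replicate number held out of every group, the rule was applied to the other 6 libraries and the 3 held-out libraries were examined. The genes so chosen were only partly the members described above. Without replicates 1, 2 and 3, members made up 35 of 51, 29 of 59 and 33 of 56 of them. The held-out counts below are for all genes chosen in this way, whether members or not. Without replicate 1 the rule chose 51 genes, of which 38 were below water at young fruit and above water at flowering in the held-out libraries (74.5%, against 8.98% of all genes at the floor). Without replicate 2 it chose 59 genes and 35 kept both directions (59.3% against 9.61%). Without replicate 3 it chose 56 genes and 35 kept both directions (62.5% against 9.10%). Both full limits were met again in 17, 19 and 17 of these genes, against 0.391, 0.497 and 0.508% of all genes at the floor. Young fruit was below flowering in 50 of 51, 52 of 59 and 53 of 56, against 51.0, 52.4 and 50.2% of all genes.

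Each side of the pattern was also read alone. In the held-out libraries the young-fruit-stage value was below water in 42 of 51, 43 of 59 and 42 of 56 genes, against 46.4, 45.6 and 46.3% of all genes at the floor. The flowering-stage value was above water in 46, 51 and 48 of them, against 54.0, 55.8 and 54.2% of all genes at the floor, and whether the sides differ was not tested. The median log2 ratio to water at young fruit was -0.35, -0.26 and -0.37, against 0.05, 0.06 and 0.05 over all genes (log2 of CPM + 0.5). At flowering it was 0.56, 0.53 and 0.50, against 0.05, 0.08 and 0.05 over all genes. Both directions are set against the same held-out water library, so they are not independent of each other. Of chosen genes with at least 10 CPM, 13 of 16, 10 of 11 and 14 of 15 kept both directions, and of those under 10 CPM 25 of 35, 25 of 48 and 21 of 41 did. The share over all genes was not taken within each abundance class, so the classes are not compared. These counts carry no test, since each held-out group is 1 library. The labels do not say whether replicates came from separate plants. A held-out library may therefore be a technical repeat of those that chose the genes.

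**Figure D4:**
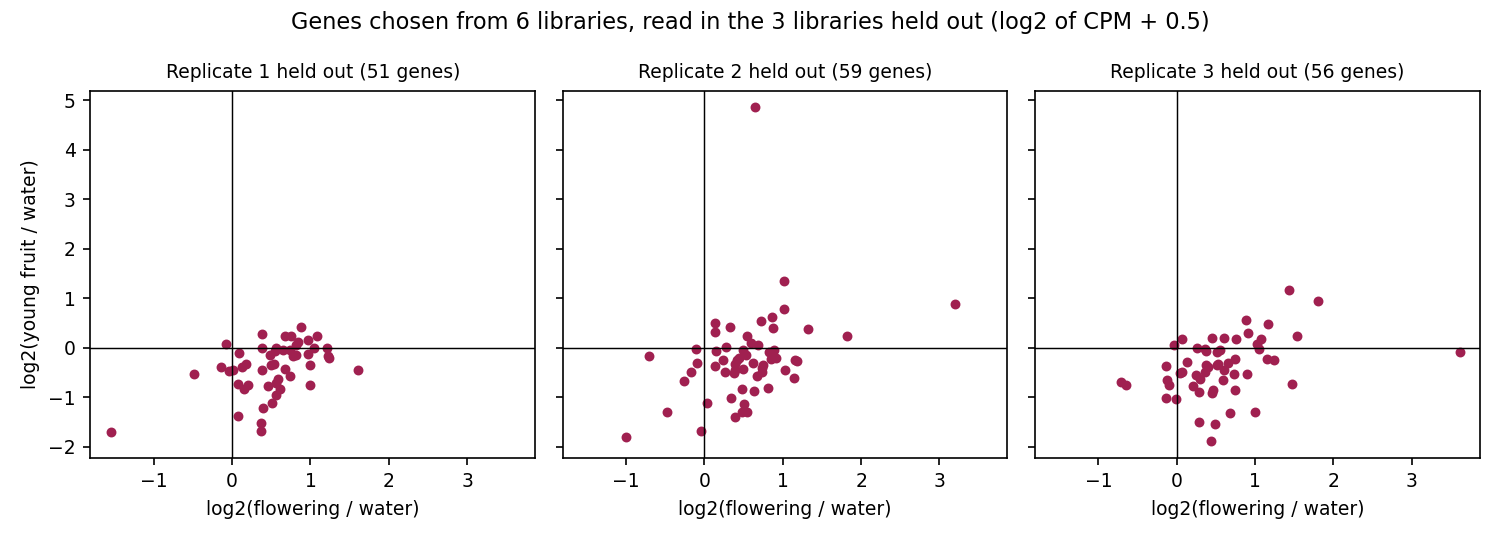
For each replicate number, genes chosen by the rule from the other 6 libraries are shown at their log2 ratios in the 3 held-out libraries, with flowering-stage potassium over water on the horizontal axis and young-fruit-stage potassium over water on the vertical axis (log2 of CPM + 0.5). The lower right part holds the genes that kept both directions, 38 of 51, 35 of 59 and 35 of 56. Of the genes shown, 35, 29 and 33 were members of the set.

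Values ran on without a gap across the limits of the rule. The members just inside the flowering limit had ratios of 1.257, 1.258 and 1.269, and the genes just outside had 1.2497 (with a mean of 55.5 CPM), 1.248 and 1.242. Just inside the young-fruit limit the ratios were 0.793, 0.784 and 0.777, and just outside 0.807, 0.808 and 0.810. At the floor, the lowest means were 3.17, 3.28 and 3.29 CPM inside and 2.87, 2.64 and 2.63 CPM outside. A further 30 genes met the flowering limit with a young-fruit ratio between 0.8 and 0.85, and 14 members had a ratio over 0.75. The reverse pattern, lower at flowering and higher at young fruit by the same limits, was met by 83 genes.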

How the data were processed

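RNA was extracted from fruit by the Trizol method and sequenced from NEBNext Ultra libraries, per the labels' protocols. The authors deposited unnormalized whole counts for each gene and library. HISAT2 2.1.0 and StringTie 1.3.4d appear in the submitters' processing notes without their roles. How reads were counted, on which genome build and annotation and with which strand option is not given in the sources used here. Library totals ran from 15655016 to 18424967. Groups and replicate numbers were read from the titles.

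CPM were computed over all genes with TMM factors, those of all 9 libraries also for libraries read after being held out. Tests used edgeR 4.0.16 in R 4.3.3 (quasi-likelihood F test, filterByExpr with minimum count 10 and minimum total 15, all 9 libraries, 1 term per group, Benjamini-Hochberg over 25728 genes, threshold 0.05). The edgeR test and the rule were also run on simulated counts, with planted differences of 1.5-fold or more and the same dispersion for all genes. Smaller differences, as in many members, were not simulated. The SE of an edgeR log2 fold change is an approximation, its absolute value divided by the square root of the F statistic. DESeq2 1.42.0 was an alternative. The members and gene lists were chosen with earlier results of these data known. No list could be matched, for want of gene names. Named genes are Vadar members with groups apart and at least 4 water counts: the 2 with the highest flowering ratio and the 2 with the lowest young-fruit ratio. Other members were picked for description after their values were seen.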

Additional observations from a re-analysis of the deposited data

Results flagged for a closer look

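In 43 members levels were called lower after young-fruit-stage than after flowering-stage potassium by the direct edgeR test (adjusted p under the threshold of 0.05). Of all genes tested, 9.24% were called lower. The rule that formed the set requires such a difference, so the count is a description. For the named genes the log2 fold change of young-fruit-stage against flowering-stage potassium was -4.04 for Vadar_g39973.v1.2, -2.07 for Vadar_g35303.v1.2, -1.94 for Vadar_g4736.v1.2 and -1.62 for Vadar_g6946.v1.2. Groups of 3 libraries are too small for a test of single outlying libraries.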

How the results depend on the processing

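Membership depended on the limits more than on the scaling. A floor of 1 CPM gave 103 genes, a floor of 10 CPM 13, and fold limits of 1.5 left 7. Scaling by library size alone gave 52 genes, 33 of them members, and moved the median log2 ratio of all genes at the floor from 0.05 to -0.07 at young fruit and from 0.06 to -0.07 at flowering; the members called lower at young fruit than in water became 34 instead of 22 (31.8% instead of 25.7% of all genes) and those called higher at flowering 26 instead of 31 (18.8% instead of 24.3%). RLE and upper quartile scaling gave 46 and 49 genes with 44 and 42 members, and group medians 55 with 31. Under all 3 other scalings 31 members were kept. Leaving out libraries, 1 at a time or 1 replicate number at a time, gave 41 to 61 genes; 19 members were kept under every single library left out, and the other 25 left the set at least once. The share with the other prefix was then 22.4 to 32.7%. The numbers of members called were 27 to 32 at flowering against water, 18 to 26 at young fruit against water and 39 to 44 between the timings, beside 21.6 to 24.2%, 22.6 to 25.2% and 6.69 to 9.72% of all genes in the same directions. Genes called in either direction numbered 11449 to 12895, 12098 to 13376 and 3875 to 5362. With DESeq2, without the filter and with the 2 compared groups alone, each count of genes or members called stayed within 1.5 times. The young-fruit difference of Vadar_g39973.v1.2 from water was called under library size and upper quartile scaling (log2 fold changes of -0.49 and -0.44) and without water replicate 3 (-0.46), and the flowering difference of Vadar_g4736.v1.2 (0.37) was not called without water replicate 3; the causes were not tested.

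With the replicate number as a block 31, 23 and 43 members were called, in the same order of comparisons. In the same directions 6382, 6672 and 2576 of all genes tested were called (24.8, 25.9 and 10%). The labels give the numbers no meaning. Deviations of same-numbered libraries correlated at -0.08 to 0.14 across genes, and those of other pairs at -0.14 to 0.13. With 3 libraries per group, these correlations cannot show whether same-numbered samples shared plants or handling. Relative to the level, counting error is largest in the members under 10 CPM. The ratio of observed to counting variance had a median of 2.82 in them and 2.91 in the other members.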
